A study of Chimonocalamus delicatus with 27 samples.

Results

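The genes PH02Gene44840, PH02Gene44839 and PH02Gene24615 of the bamboo Chimonocalamus delicatus are annotated as flavonoid O-methyltransferase-like proteins and carry the symbol Os11g0303600, the name of a rice gene. They were picked by name, after measured values of these libraries were known, for their abundance in stem. They are 3 of the 14 genes with that symbol, and 3 of the 55972 genes in the table of growth stages and of the 57356 genes in the table of plant parts. Since their levels in stem decided the choice, the levels across plant parts and the step between shoot and 0.5-year stem are given as a description, with no test. Tests were made only between stem ages. The choice did not record which stem libraries it used, so a high level in the 0.5-year stem may be part of what was chosen.

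The study sequenced RNA from this fragrant bamboo to follow the expression of aroma and terpene genes with culm age and between plant parts. One set of 15 libraries covered growth stages: the bamboo shoot and stems of 0.5, 1, 2 and 3 years. A separate set of 12 libraries covered the plant parts stem, branch, leaf and rhizome, and the labels give no age for its stems. Each of the 9 groups had 3 libraries, which the labels number but do not tie to separate plants, so the p-values below measure the spread between these libraries. The labels name no treatment, cultivar or genetic change that would distinguish the groups. Growth stage libraries held 8615092 to 12422327 expected counts, and libraries of plant parts 6257623 to 9010973. Levels are given in FPKM, fragments per kilobase of transcript scaled to the size of the library, and each set was normalized on its own, so no test was made across the sets.

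O-methyltransferases of plants move a methyl group from S-adenosylmethionine to a hydroxyl group of a small molecule. Those that act on flavonoids, a large class of phenolic compounds made from phenylalanine through the phenylpropanoid pathway, change the solubility and reactivity of the compounds, and related enzymes methylate the precursors of lignin in stems. The annotation of these 3 genes rests on similarity to a protein of the goat grass Aegilops tauschii, and neither their substrates nor their enzyme activity were measured here. PH02Gene44839 and PH02Gene44840 have consecutive numbers, and PH02Gene24615 follows PH02Gene24614, another gene with the same symbol. Near-identical copies can share reads, so the division of counts among these genes is uncertain.

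All 3 genes had their highest growth stage level in the 0.5-year stem, a lower one in the shoot, and low ones in the older stems. PH02Gene44840, the most abundant member, had 34.7, 17.99 and 117 FPKM in the shoot, 353, 335 and 365 FPKM in the 0.5-year stem, 50.7, 8.41 and 7.96 FPKM in the 1-year stem, 4.03, 23.2 and 1.83 FPKM in the 2-year stem, and 6.83, 4.85 and 2.71 FPKM in the 3-year stem. All libraries of the 0.5-year stem were above all libraries of every other stage, while the shoot overlapped the 1-year and 2-year stems. By its mean the gene ranked 14017th of 55972 genes in the 3-year stem and 112th in the 0.5-year stem.

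PH02Gene44839 followed the same order at lower levels. It had 25.2, 17.9 and 98.6 FPKM in the shoot, 215, 223 and 229 FPKM in the 0.5-year stem, 26.98, 4.52 and 5.21 FPKM in the 1-year stem, 1.09, 12.3 and 1.17 FPKM in the 2-year stem, and 3.12, 1.64 and 1.93 FPKM in the 3-year stem. PH02Gene24615 had 7.65, 8.55 and 37.4 FPKM in the shoot, 143, 123 and 152 FPKM in the 0.5-year stem, 23.6, 5.72 and 6.47 FPKM in the 1-year stem, 1.43, 13.2 and 0.848 FPKM in the 2-year stem, and 3.32, 1.43 and 1.69 FPKM in the 3-year stem. In both genes the 0.5-year stem again stood above every other stage without overlap, and the 2-year stem overlapped both the 1-year and the 3-year stem. The 3-year stem lay below the shoot without overlap in all 3 genes. How many of all genes show no overlap between stages was not counted, so nothing is read from these orders. The 3-year stem and the shoot were not compared in a fit.

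The 0.5-year stem held 6.20 times the mean shoot level of PH02Gene44840, with 351 ± 15.2 FPKM in the 0.5-year stem and 56.6 ± 53.0 FPKM in the shoot (SD, n = 3 each). For PH02Gene44839 the 0.5-year stem averaged 222 ± 7.34 FPKM and the shoot 47.3 ± 44.6 FPKM, a ratio of 4.71. For PH02Gene24615 the means were 139 ± 14.6 FPKM in the 0.5-year stem and 17.9 ± 16.9 FPKM in the shoot, a ratio of 7.78. The groups did not overlap in 3 of the 3 genes, in a comparison in which edgeR called 53.8% of the tested genes changed in either direction. The share of all genes without overlap was not counted. Nothing is read from the members' count, because high stem levels were the ground of the choice. The replication factors MCM2 to MCM7 and PCNA, markers of dividing cells, had 27 genes. Of these, 13 or 14 were above 0 in a 0.5-year library and 17 or 18 in a shoot library. Their summed level was 60.2 to 61.4 FPKM in the 0.5-year stem and 192 to 725 FPKM in the shoot.

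**Figure D1:**
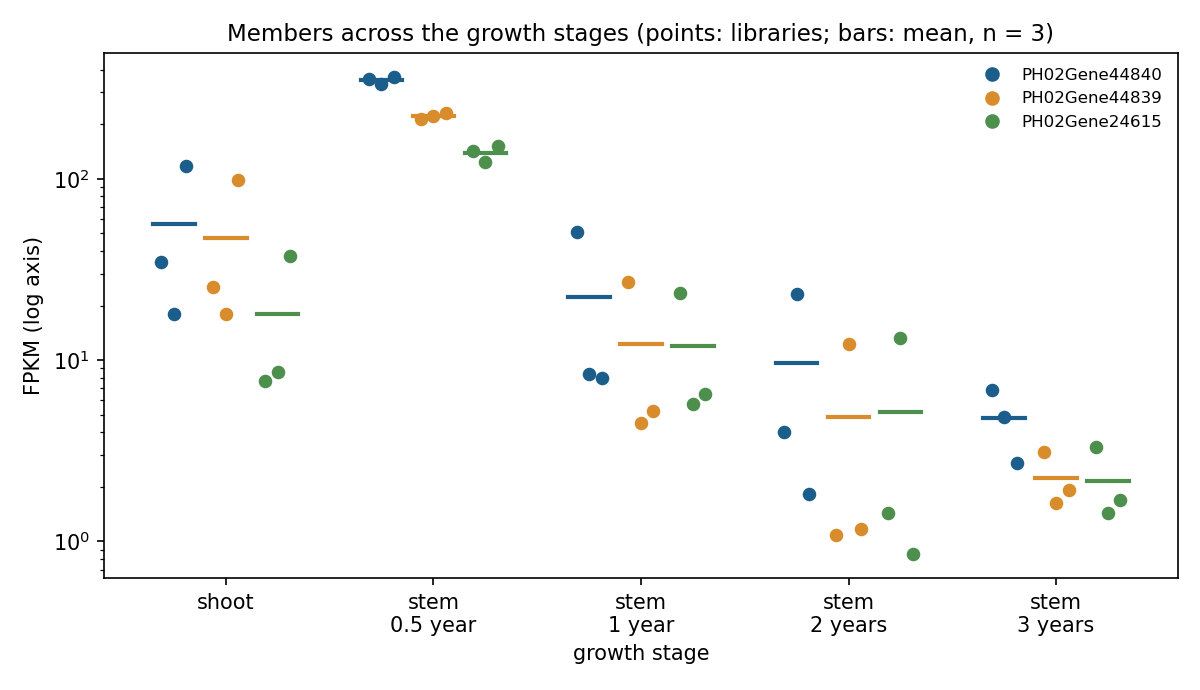
FPKM of the 3 genes (log axis) in the 15 libraries of the growth stage set, from shoot to 3-year stem. Points are libraries and bars are means of 3 libraries. The 0.5-year stem libraries lie close together, between 123 and 365 FPKM depending on the gene, above every other stage.

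Some libraries stood apart from the others of their group in all 3 genes at once. Shoot library 3, 1-year library 1 and 2-year library 2 were each the highest of their group for every member. In 2-year library 2 PH02Gene44840 reached 23.2 FPKM, against 4.03 and 1.83 FPKM in the other 2-year libraries. The caffeic acid O-methyltransferase PH02Gene02562, which is no member, was also highest there, at 47.7 FPKM against 6.71 and 4.58 FPKM. It was highest in shoot library 3 too, at 641 FPKM against 258 and 306 FPKM. In 1-year library 1 it was not the highest, at 62.7 FPKM against 44.5 and 83.3 FPKM. The summed level of light-harvesting and Rubisco small subunit genes, markers of green tissue, was 1687 FPKM in shoot library 3 and 661 and 286 FPKM in the other shoot libraries. In 1-year library 1 that sum was 340 FPKM, against 251 and 309 FPKM, and in 2-year library 2 it was 110 FPKM, against 93.4 and 110 FPKM. The part of tissue make-up in the members' levels was not tested. In bulk RNA, fewer cells that express a gene and less RNA of it per cell cannot be told apart.

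Across the plant parts the 3 genes were abundant in stem and branch and low in leaf, and PH02Gene24615 differed from the others in rhizome. PH02Gene44840 had 373, 839 and 1355 FPKM in stem, 319, 214 and 1018 FPKM in branch, 0.152, 7.15 and 0.31 FPKM in leaf, and 0.608, 1.36 and 0.396 FPKM in rhizome. Stem and branch overlapped, and both stood far above leaf and rhizome, which overlapped each other. By its mean the gene ranked 25th of 57356 genes in stem and 51st in branch. PH02Gene44839 had 169, 384 and 629 FPKM in stem, 157, 96.8 and 450.4 FPKM in branch, 0.099, 5.01 and 0 FPKM in leaf, and 0.517, 0.949 and 1.14 FPKM in rhizome. Its order of parts and its overlaps were those of PH02Gene44840, and it ranked 100th in stem.

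PH02Gene24615 had 107, 253 and 399 FPKM in stem, 89.6, 57.9 and 297 FPKM in branch, 0.116, 1.79 and 0 FPKM in leaf, and 8.24, 17.95 and 4.89 FPKM in rhizome. For this gene rhizome lay above leaf with no overlap, with a mean of 10.4 ± 6.78 FPKM in rhizome and 0.634 ± 0.999 FPKM in leaf (SD, n = 3 each), a ratio of 16.3. The counts of 0 in leaf library 3 for PH02Gene44839 and PH02Gene24615 allow up to 0.367 CPM (each count divided by its library's total and scaled up), which corresponds to 3 counts and covers counting error only.

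The mean stem level was 1.66 times the branch level for PH02Gene44840, 1.68 times for PH02Gene44839 and 1.71 times for PH02Gene24615, and stem and branch overlapped in each. The fitted log2 differences of stem minus leaf were 8.28, 7.71 and 8.52 for PH02Gene44840, PH02Gene44839 and PH02Gene24615, and those of stem minus rhizome were 10.11, 8.86 and 4.61. Stem did not overlap leaf or rhizome in 3 of the 3 genes, and edgeR called 36.6% of tested genes between stem and leaf, 0.79% between stem and branch and 29.6% between stem and rhizome. With a library left out edgeR called between 2 genes (without stem library 2) and 802 genes (without rhizome library 2) between stem and branch, against 234 with all. The share of all genes without overlap was not counted, and the counts of members follow from the choice of the genes. Within stem and branch the libraries again moved together: stem library 1 was the lowest stem library and branch library 3 the highest branch library for each gene. The same held in leaf, where library 2 held 7.15, 5.01 and 1.79 FPKM of PH02Gene44840, PH02Gene44839 and PH02Gene24615. The light-harvesting and Rubisco sum ran in another order in stem, at 7595, 5604 and 2901 FPKM in libraries 1, 2 and 3. In branch it ran in the members' order, at 3930, 3066 and 4904 FPKM in libraries 1, 2 and 3, where the summed levels of the members were 565, 369 and 1765 FPKM. In leaf it was 27356, 35686 and 34714 FPKM, highest in library 2, and in rhizome it lay between 22.5 and 93.6 FPKM. Its part in the members' levels was not tested.

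**Figure D2:**
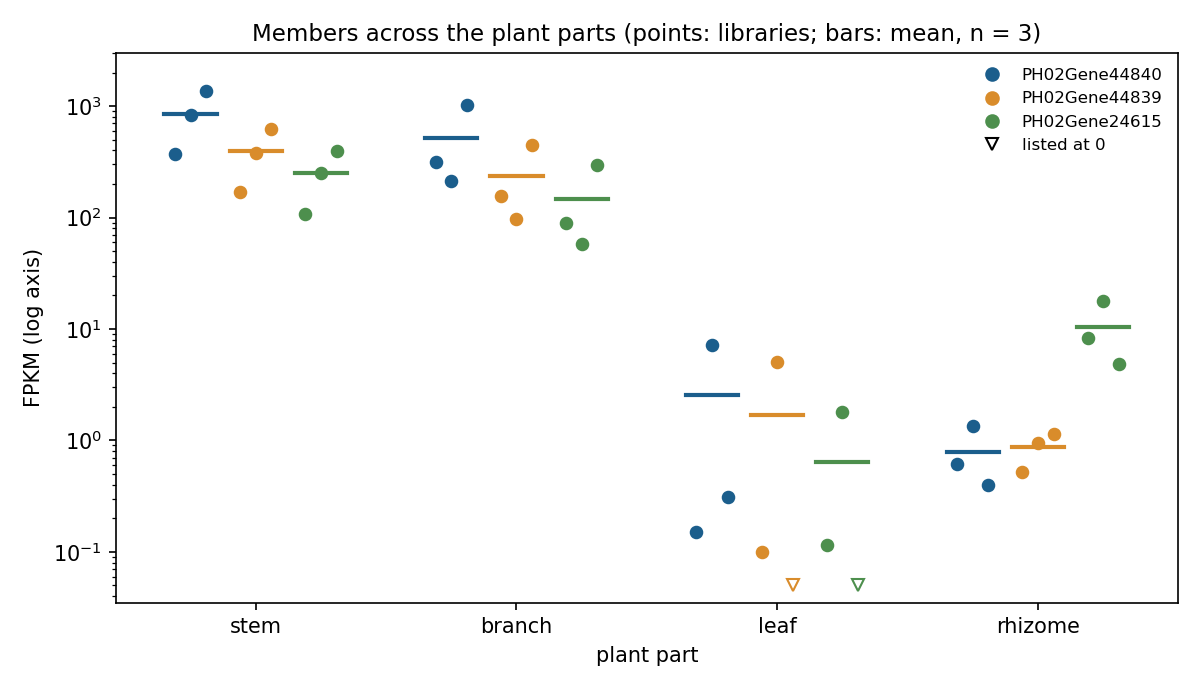
FPKM of the 3 genes (log axis) in the 12 libraries of the plant part set. Points are libraries, bars are means of 3 libraries, and open triangles at the foot mark the 2 leaf values listed at 0. Stem and branch overlap, and PH02Gene24615 is the member with rhizome values above its leaf values, at 4.89 to 17.95 FPKM.

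The proportions of the 3 genes were nearly fixed in stem and branch and different in rhizome. PH02Gene44840 made up 56.4% to 58.1% of their summed FPKM in the stem and branch libraries, PH02Gene44839 25.5% to 27.7%, and PH02Gene24615 15.7% to 17.2%. The branch shares lay within these ranges although their summed levels were 565, 369 and 1765 FPKM. In rhizome PH02Gene24615 made up 76.1% to 88.6% and PH02Gene44840 6.16% to 6.70%, of sums of 9.37, 20.3 and 6.43 FPKM. The ratio of PH02Gene44840 to PH02Gene24615 was 3.31 to 3.70 over the stem and branch libraries and 0.0738 to 0.0809 over the rhizome libraries. In the growth stage set this ratio was 4.54, 2.10 and 3.13 in the shoot, 2.48, 2.72 and 2.41 in the 0.5-year stem, 2.15, 1.47 and 1.23 in the 1-year stem, 2.82, 1.76 and 2.16 in the 2-year stem, and 2.06, 3.40 and 1.60 in the 3-year stem, and was steadiest in the 0.5-year stem. A change of proportions between parts cannot be told apart from a different division of shared reads where the genes' sequences are close.

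**Figure D3:**
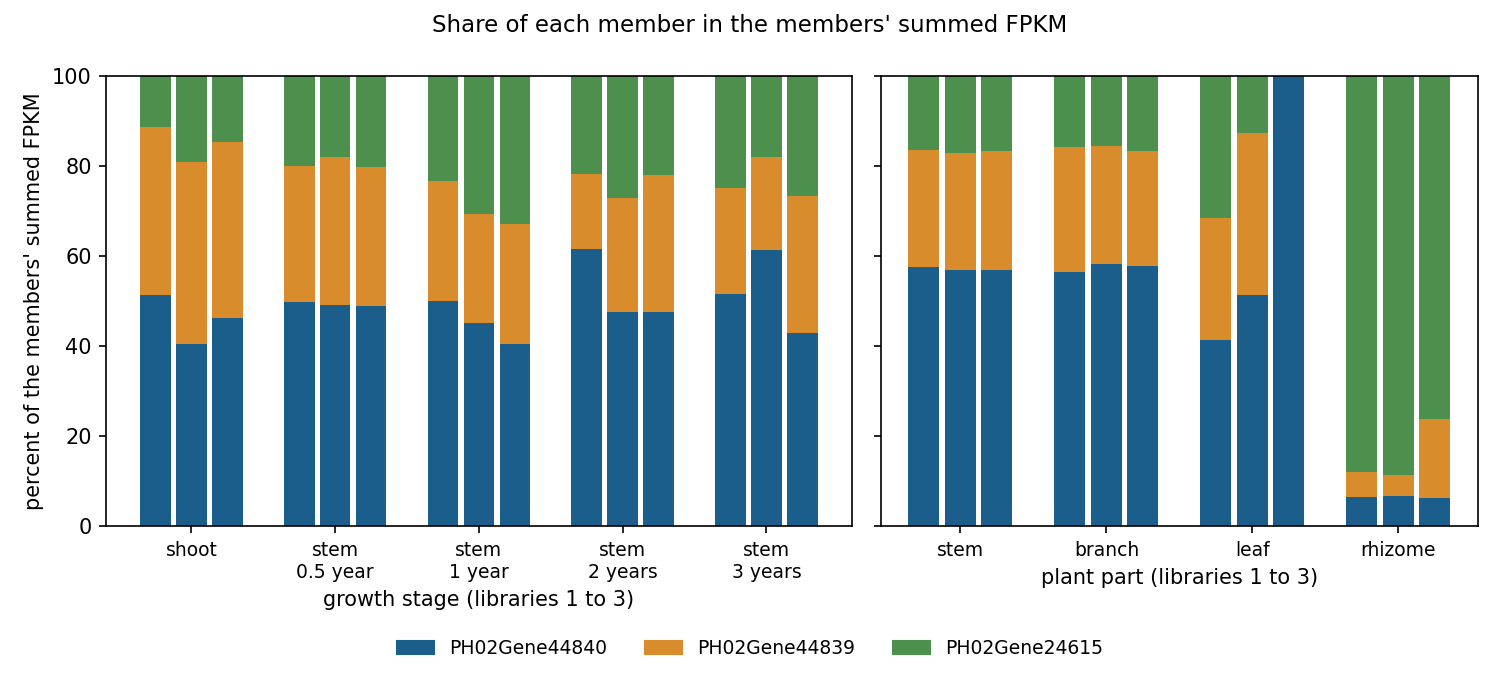
Share of each gene in the summed FPKM of the 3 genes, in percent, for each library; bars in a group are libraries 1 to 3. Stem and branch have nearly the same shares in every library, and in rhizome PH02Gene24615 makes up 76.1% to 88.6%. In leaf library 3 only PH02Gene44840 was above 0, at 0.31 FPKM.

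Across libraries the 3 genes were closely correlated on the log2(FPKM + 1) scale, as a description. Over the 15 growth stage libraries Pearson's r was 0.991 between PH02Gene44840 and PH02Gene44839, 0.985 between PH02Gene44840 and PH02Gene24615 and 0.978 between PH02Gene44839 and PH02Gene24615. Deviations of libraries from their group means, which leave out the differences between stages, still had r of 0.951 to 0.978. Over the 12 plant part libraries r was 0.998 for PH02Gene44840 with PH02Gene44839, and 0.924 and 0.932 for PH02Gene24615 with PH02Gene44840 and PH02Gene44839. Within the plant parts the deviations from group means had r of 0.973 between PH02Gene44840 and PH02Gene44839, 0.911 between PH02Gene44840 and PH02Gene24615 and 0.846 between PH02Gene44839 and PH02Gene24615. These values share library, depth and possibly reads.

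Between stem ages, all 3 genes fell in the 1-year stem against the 0.5-year stem. A high 0.5-year level may be part of the choice, so tests against that stem cannot tell how much of a fall the choice brought. PH02Gene44840 averaged 22.4 ± 24.6 FPKM in the 1-year stem and 351 ± 15.2 FPKM in the 0.5-year stem (SD, n = 3 each), a log2 fold change of -3.96 ± 0.94 (SE; edgeR adjusted p = 0.00654). PH02Gene44839 averaged 12.2 ± 12.8 FPKM in the 1-year stem and 222 ± 7.34 FPKM in the 0.5-year stem, a log2 fold change of -4.17 ± 0.92 (edgeR adjusted p = 0.00402). PH02Gene24615 averaged 11.9 ± 10.1 FPKM in the 1-year stem and 139 ± 14.6 FPKM in the 0.5-year stem, a log2 fold change of -3.54 ± 0.86 (edgeR adjusted p = 0.00709). All 1-year libraries lay below all 0.5-year libraries for each gene. The background was high, since edgeR called 30.4% of the tested genes in this comparison, and the share of all genes without overlap was not counted. The sum of 43 light-harvesting and Rubisco small subunit genes, of which 26 to 34 were above 0 in a library, moved the same way, at 251 to 340 FPKM in the 1-year stem and 1001 to 1060 FPKM in the 0.5-year stem. Its part in the members' change was not tested. The sum of the replication genes was 60.1 to 75.5 FPKM in the 1-year stem and 60.2 to 61.4 FPKM in the 0.5-year stem.

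Without library 1 of the 1-year stem, the highest of its group, these differences were -5.52, -5.61 and -4.61 for PH02Gene44840, PH02Gene44839 and PH02Gene24615. The 3 libraries of the 0.5-year stem were closer to each other than those of any other stage, with a chi-square per degree of freedom between their counts of 1.76 to 2.41, against 11.8 to 47.1 in the other stages. With those 3 libraries summed to 1 sample the calls between the 1-year and 0.5-year stems were lost, at edgeR adjusted p = 0.0656, 0.0503 and 0.0772 and nearly the same fold changes of -3.95, -4.17 and -3.53.

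The 3-year stem lay further below the 0.5-year stem, with the same limit from the choice of the genes. PH02Gene44840 averaged 4.80 ± 2.06 FPKM in the 3-year stem and 351 ± 15.2 FPKM in the 0.5-year stem, a log2 fold change of -6.02 ± 1.05 (edgeR adjusted p = 0.000417). PH02Gene44839 averaged 2.23 ± 0.787 FPKM in the 3-year stem and 222 ± 7.34 FPKM in the 0.5-year stem, a change of -6.46 ± 1.05 (edgeR adjusted p = 0.000237). PH02Gene24615 averaged 2.15 ± 1.02 FPKM in the 3-year stem and 139 ± 14.6 FPKM in the 0.5-year stem, a change of -5.81 ± 0.98 (edgeR adjusted p = 0.000326). The 3 genes stayed called with the 0.5-year libraries summed to 1 sample, at edgeR adjusted p = 0.00649, 0.00447 and 0.00604. edgeR called 45.8% of all tested genes between these ages, and this comparison shares the 0.5-year libraries with the 1-year one. The light-harvesting and Rubisco sum was 68.3 to 218 FPKM in the 3-year stem and 1001 to 1060 FPKM in the 0.5-year stem, and its part was again not tested.

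No member passed the test between the 2-year and 1-year stems or between the 3-year and 2-year stems. For the 2-year against the 1-year stem the log2 fold changes were -1.14 ± 0.87, -1.24 ± 0.87 and -1.11 ± 0.84 for PH02Gene44840, PH02Gene44839 and PH02Gene24615 (edgeR adjusted p = 0.533, 0.489 and 0.524). For the 3-year against the 2-year stem they were -0.93 ± 0.90, -1.04 ± 0.95 and -1.16 ± 0.91 (edgeR adjusted p = 0.928, 0.920 and 0.904). None of the 3 had an unadjusted p under 0.05 in either comparison, and limma called none. DESeq2 called neither of the members it gave a p for. Few genes were called at all, 1.5% of those tested between the 2-year and 1-year stems and 0.00677% between the 3-year and 2-year stems. With a library left out the first count, 443 with all, ran between 15 (without 2-year library 3) and 1293 (without shoot library 3). The signs rested on single libraries: without 1-year library 1 the first difference was 0.43 for PH02Gene44840 and 0.19 for PH02Gene44839, and without 2-year library 2 the second was 0.69, 0.97 and 0.91 for PH02Gene44840, PH02Gene44839 and PH02Gene24615.

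**Figure D4:**
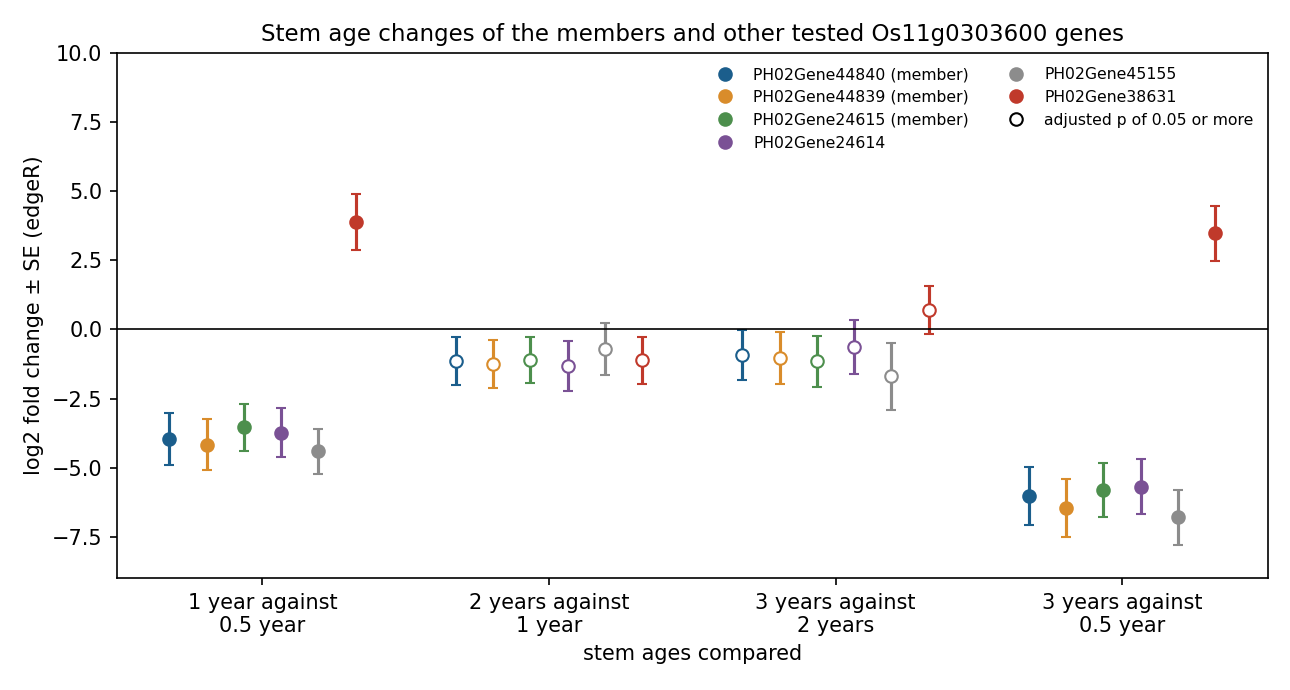
Log2 fold change between stem ages (older minus younger) with its SE from edgeR, for the 3 genes and for the other 3 genes with the symbol Os11g0303600 that were tested in the growth stage set. Filled points have an adjusted p under 0.05. The members lie between -3.54 and -4.17 for the 1-year and between -5.81 and -6.46 for the 3-year stem against the 0.5-year stem, and PH02Gene38631 lies above 0 in both.

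Of the other 11 genes with the symbol Os11g0303600, 3 were tested in the growth stages and 4 in the plant parts, and 2 ran with the members. Most of the others were too low in every library to show a course. PH02Gene24614 is the nearest gene outside the choice: it had 103, 253 and 397 FPKM in stem, close to the values of PH02Gene24615, and 84.3, 53.2 and 293 FPKM in branch. It differed from PH02Gene24615 in rhizome, where it had 0.796, 1.36 and 1.78 FPKM. In the 0.5-year stem it had 97.8, 103 and 112 FPKM, against 7.41, 4.85 and 30.6 FPKM in the shoot, a log2 fold change of 3.27 ± 0.85 (edgeR adjusted p = 0.00477). It fell in the 1-year against the 0.5-year stem by 3.73 ± 0.87 on the log2 scale (edgeR adjusted p = 0.00585), a call lost with the 0.5-year libraries summed (adjusted p = 0.0714). In the 3-year against the 0.5-year stem its log2 fold change was -5.69 ± 0.99 (edgeR adjusted p = 0.000407). It was higher in stem than in leaf by 8.09 ± 1.16 and than in rhizome by 7.59 ± 1.11 on the log2 scale (edgeR adjusted p = 0.000348 and 0.000902). PH02Gene24614 may share reads with PH02Gene24615, which was chosen for its stem level, so these tests may not be independent of that choice.

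PH02Gene45155 had the same course at lower levels, with a mean of 21.5 ± 5.32 FPKM in the 0.5-year stem and 3.23 ± 3.70 FPKM in the shoot (edgeR log2 fold change 3.14 ± 0.73, adjusted p = 0.0025). It fell in the 1-year and in the 3-year stem against the 0.5-year stem, with log2 fold changes of -4.40 ± 0.81 and -6.80 ± 1.00 (edgeR adjusted p = 0.00136 and 0.000118). In the plant parts it averaged 38.4 ± 22.5 FPKM in stem, 22.6 ± 23.5 in branch, 0.234 ± 0.405 in leaf and 3.62 ± 2.30 FPKM in rhizome. The stem level exceeded leaf by 7.21 ± 1.24 and rhizome by 3.41 ± 0.94 on the log2 scale (edgeR adjusted p = 0.0011 and 0.0202). The difference from rhizome was not called without stem library 3 or without rhizome library 1 (edgeR adjusted p = 0.0595 and 0.0712).

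PH02Gene38631 ran the other way with stem age. It had 0.785, 0.407 and 0.384 FPKM in the 0.5-year stem, 2.66, 7.75 and 14.6 FPKM in the 1-year stem, 0.564, 6.35 and 3.01 FPKM in the 2-year stem and 9.72, 1.47 and 4.36 FPKM in the 3-year stem. It rose in the 1-year and in the 3-year stem against the 0.5-year stem, by 3.88 ± 1.01 and 3.47 ± 1.01 on the log2 scale (edgeR adjusted p = 0.0108 and 0.0121). Both calls were lost with the 0.5-year libraries summed (adjusted p = 0.177 and 0.145), and the 3-year one without 3-year library 1 (2.66, adjusted p = 0.0621). In the plant part set it had 0, 0 and 0.173 FPKM in stem, 1.15, 1.65 and 5.93 FPKM in branch, and 1.90, 1.44 and 0.177 FPKM in leaf, so the member-like stem levels were not shared by every gene of the symbol. PH02Gene35955 had 0.081, 0 and 0 FPKM in stem and 6.35, 1.09 and 12.01 FPKM in rhizome. Its log2 fold change in stem against rhizome was -7.32 ± 1.25 (edgeR adjusted p = 0.00322). In the growth stages it had 2.315 FPKM in 1-year library 2 and at most 0.072 FPKM in any other library. The remaining genes, PH02Gene15321, PH02Gene19517, PH02Gene21623, PH02Gene22544, PH02Gene30502, PH02Gene46240 and PH02Gene48266, reached at most 1.61 FPKM in any library. The 3 members held 83.3% to 85.4% of the symbol's summed FPKM in stem and branch, 83.9% to 86.0% in the 0.5-year stem and 29.9% to 68.4% in rhizome.

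The cycle of S-adenosylmethionine, the methyl donor, was represented by 14 tested genes for S-adenosylmethionine synthetase, methionine synthase, adenosylhomocysteinase and adenosine kinase. Of these, 0 rose, 7 fell and 7 did not pass the test in the 1-year against the 0.5-year stem, where 30.4% of all tested genes were called. Their median log2 change was -0.72, beside -0.01 over all tested genes. In the 3-year against the 0.5-year stem 0 rose and 9 fell, with 45.8% of all tested genes called (median -1.19 beside -0.05). The S-adenosylmethionine synthetase SAMS1 (PH02Gene08070) averaged 444 FPKM in the 1-year and 755 FPKM in the 0.5-year stem (log2 fold change -0.81 ± 0.18, edgeR adjusted p = 0.00433). The methionine synthase PH02Gene31571 averaged 126 FPKM in the 1-year and 604 FPKM in the 0.5-year stem (-2.32 ± 0.35, edgeR adjusted p = 0.00037). With the 0.5-year libraries summed, fewer genes of this list were called lower in the 1-year stem, as over all tested genes. SAMS1 was not called there, at a log2 fold change of -0.80. Only 3 or 4 genes of this list were called lower without any one of the 0.5-year libraries or without 1-year library 1. In stem against leaf 5 were higher and 0 lower, SAMS1 by 2.58 ± 0.50 on the log2 scale (edgeR adjusted p = 0.00217). In stem against rhizome 1 was higher and 2 were lower, or 0 to 1 and 1 to 4 with a library left out. Over all tested genes edgeR called 36.6% in stem against leaf and 29.6% in stem against rhizome, so nothing is read from these counts.

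The wider list of genes described as O-methyltransferases, which takes in the other genes of the symbol and also enzymes that act on anthranilate, jasmonate or glucuronoxylan, had 36 genes tested in the growth stages and 32 in the plant parts. In the 1-year against the 0.5-year stem 1 rose and 14 fell of the 36, with 30.4% of all tested genes called, and the median was -0.63 beside -0.01 over all tested genes. In the 3-year against the 0.5-year stem 3 rose (1 without 3-year library 1) and 15 fell, with 45.8% of all tested genes called (median -0.63 beside -0.05). PH02Gene02562, annotated as the caffeic acid O-methyltransferase that acts on lignin precursors, averaged 63.5 FPKM in the 1-year and 905 FPKM in the 0.5-year stem, a log2 fold change of -3.89 ± 0.69 (edgeR adjusted p = 0.00107) close in size to those of the members. It differed from the members in the plant parts, with 164 ± 50.6 FPKM in stem and 792 ± 623 FPKM in rhizome (-2.26 ± 0.59, edgeR adjusted p = 0.0155). That call was lost without stem library 2 or 3 (adjusted p = 0.0611 and 0.0509) and when only the libraries compared were fitted (0.0864). In stem against leaf 13 of the list were higher and 5 lower, the lower count being 2 or 3 without leaf library 1 or 2 or stem library 2 or 3, and in stem against rhizome 8 were higher and 6 lower. Over all genes 36.6% and 29.6% were called in these comparisons. The lignin-related caffeoyl-CoA O-methyltransferases numbered 5 tested genes, of which 2 fell and 0 rose in the 1-year stem. PH02Gene12695 averaged 131 FPKM in the 1-year and 220.4 FPKM in the 0.5-year stem (-0.80 ± 0.21, edgeR adjusted p = 0.0101), a call lost with the 0.5-year libraries summed (adjusted p = 0.134).

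Of 24 tested genes for the entry into phenylpropanoids (phenylalanine ammonia-lyase, cinnamate hydroxylase and coumarate-CoA ligase), 13 rose and 5 fell in the 0.5-year stem against the shoot (median 1.35 beside -0.04 over all genes), and 1 rose and 8 fell in the 1-year against the 0.5-year stem (median -0.78). The 5 that fell against the shoot became 2 or 3 without shoot library 3 or any one 0.5-year library, and the 8 became 5 without 1-year library 2. Over all genes 53.8% were called in the first comparison and 30.4% in the second. Of 17 tested genes of the flavonoid core list, 4 rose and 3 fell in the 0.5-year stem against the shoot, and 0 rose and 7 fell in the 1-year against the 0.5-year stem (median -1.64). The 4 became 8 without shoot library 3 and 2 without any other library of the shoot or the 0.5-year stem. The list's term for chalcone isomerase also took in genes described as vacuolar sorting receptors. The chalcone isomerase gene PH02Gene06088, which closes the flavonoid ring, averaged 2.05 FPKM in the 1-year and 38.4 FPKM in the 0.5-year stem (-4.26 ± 0.67, edgeR adjusted p = 0.000506). The chalcone synthase PH02Gene44458, the first enzyme of the pathway, averaged 3.12 and 24.9 FPKM in the 1-year and 0.5-year stems (-3.05 ± 0.97, edgeR adjusted p = 0.0289), a call lost without any one of the 0.5-year libraries (adjusted p = 0.0604 to 0.0611) or without 1-year library 1 or 2 (0.0777 and 0.102). Neither gene passed the test between the 0.5-year stem and the shoot, at 0.68 ± 0.56 and 0.21 ± 0.86 (edgeR adjusted p = 0.331 and 0.849). The members had fitted differences of 3.04, 2.64 and 3.37 there. They were chosen for their stem levels, so nothing is read from this contrast.

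With the 0.5-year libraries summed to 1 sample, fewer genes were called lower in the 1-year stem than in the fit with 3 libraries. That held for the O-methyltransferase, phenylpropanoid entry, flavonoid core and caffeoyl-CoA O-methyltransferase lists. It held over all tested genes as well, so nothing is read from the loss. In the plant parts the flavonoid core list, with 24 genes tested, had 5 genes higher and 3 lower in stem than in leaf, and 7 higher and 5 lower in stem than in rhizome. The entry list, with 21 tested, had 1 gene higher and 8 lower in stem in each of those comparisons, in which 36.6% and 29.6% of all tested genes were called. Against rhizome, the 8 became 3 to 5 without any one stem library or rhizome library 1, and the 5 lower genes of the flavonoid core became 3 without stem library 2. Stem against branch gave 1 call among all these lists, an anthranilate O-methyltransferase (PH02Gene39218) with a log2 fold change of -8.89 (edgeR adjusted p = 0.0229), which was not called without stem library 2, branch library 2 or 3, or leaf library 1, or with the replicate number as a block (adjusted p = 0.0726). Between the 2-year and 1-year stems and between the 3-year and 2-year stems edgeR called 0 genes of these lists. Of all tested genes, 1.5% and 0.00677% were called there. An unadjusted edgeR p under 0.05 was held by 18 and 9 of the 93 list genes, and by 5317 and 2079 of all 29538. Nothing is read from these counts. Other settings called at most 3 O-methyltransferases, 1 methyl donor gene and 1 flavonoid core gene lower in the 2-year than in the 1-year stem.

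Among 11665 described genes with at least 10 FPKM on average in some group of each set, the gene most like the members was PH02Gene24614, with Pearson's r of 0.995 over the 15 growth stage and 0.997 over the 12 plant part libraries, against the mean log2(FPKM + 1) of the members. PH02Gene45155 followed with r of 0.967 and 0.938. A nucleolin-like gene (PH02Gene15433) had r of 0.911 and 0.928, and only these 3 of the 11665 genes exceeded 0.9 in both sets. The next were a photosystem II polypeptide gene (PH02Gene09620, r of 0.893 and 0.973), the growth-regulating factor GRF3 (PH02Gene02258, 0.892 and 0.890), PH02Gene36331 (0.888 and 0.925), the U-box gene PH02Gene12681 (0.949 and 0.886) and the protein kinase gene CIPK24 (PH02Gene13937, 0.880 and 0.897). The range of PH02Gene15433 was smaller: it averaged 13.01 FPKM in the 3-year stem and 29.8 FPKM in the 0.5-year stem, where PH02Gene44840 averaged 4.80 FPKM in the 3-year and 351 FPKM in the 0.5-year stem. Among the genes listed here without the symbol Os11g0303600, PH02Gene09620 had the highest r in the plant parts. It averaged 77.7 FPKM in stem, 47.3 in branch, 0.728 in leaf and 0.186 FPKM in rhizome. The median of the smaller r over all candidates was -0.22, and all these genes share libraries and depth with the members.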

How the data were processed

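RNA-seq of 27 libraries was used as 1 deposited file in which a table of growth stages and a table of plant parts are stacked. The authors deposited expected counts and FPKM per gene and library, per the file headers. The submitters' processing notes name HISAT2, StringTie 1.3.1 and RSEM, with no role or order, and no label used here states a genome build. No column was left without a sample.

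Expected counts were rounded and tested with edgeR 4.0.16 (quasi-likelihood, TMM, group as the only term, 1 fit per set) in R 4.3.3, on genes with FPKM of at least 1 in at least 3 libraries. SE was the log2 fold change divided by the root of the F statistic. A gene was called at a Benjamini-Hochberg adjusted p under 0.05 over all 29538 growth stage or 29630 plant part genes tested. All 3 members passed the filter in both sets. The fit was also run on simulated counts that gave a gene the same spread in every group. The spread differed between the stages here, so nothing is read from that run. DESeq2 1.42.0 and limma 3.58.1 (log2(FPKM + 1) and log2(FPKM + 0.1)) were alternatives, beside other filters, scaling, left-out libraries, summed 0.5-year libraries and a replicate block.

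The members and the pathway lists were chosen with earlier results of these data known. Genes named beside the members were the others of the symbol, the most abundant of each list step (5 for O-methyltransferases), those with the largest called change, and the 8 most like the members; of these only some are described. No gene matched the laccase marker or the caffeic acid O-methyltransferase database term, so caffeic acid O-methyltransferases came from descriptions. Sequences and positions of the genes were not used here.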

Additional observations from a re-analysis of the deposited data

How the results depend on the processing

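Each member kept its sign and its call in the 3-year against the 0.5-year stem under every alternative run that gave an adjusted p, over -6.26 to -5.98 for PH02Gene44840, -6.63 to -6.14 for PH02Gene44839 and -6.04 to -5.52 for PH02Gene24615, and with each library left out over -6.36 to -5.76, -6.79 to -6.23 and -6.27 to -5.54. In the 1-year against the 0.5-year stem the calls were lost only with the 0.5-year libraries summed to 1 sample (-3.95, -4.17 and -3.53), a fit that takes the spread of the summed sample from the other groups; over the alternatives that left out no library the adjusted p was 0.00025 to 0.0656, 0.000631 to 0.0503 and 0.000944 to 0.0772. Leaving out each library gave -5.52 to -3.54, -5.61 to -3.76 and -4.61 to -3.19, called in each case. All these runs draw on the same 0.5-year libraries, whose high level may be part of the choice. Their stability cannot tell how much of a fall the choice brought. For the 2-year against the 1-year stem leaving out libraries gave -2.75 to 0.43, -3.26 to 0.19 and -3.18 to -0.04, and for the 3-year against the 2-year stem -1.40 to 0.69, -1.51 to 0.97 and -1.64 to 0.91, none of them called; the cause was not tested. DESeq2 gave PH02Gene44839 no adjusted p. CPM in place of FPKM moved no member's level, relative to its highest group, by more than its SD. That outcome was fixed in advance, since for each member CPM was a nearly fixed multiple of FPKM. Nothing is read from it.

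Same-numbered libraries of different groups did not deviate together (correlations of -0.107 to 0.209 in the growth stages and -0.142 to 0.194 in the plant parts), so the numbers were not taken as pairs. With the replicate block the members' changes in the 1-year against the 0.5-year stem were -4.15, -4.26 and -3.59, all called, and no member's call changed. The block called 24 genes between stem and branch, against 234 without it, and 0 against 2 between the 3-year and 2-year stems.

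Counts over all genes moved more. Under alternatives that left out no library, called genes were 9418 to 17604 for the 0.5-year stem against the shoot (15891 as reported), 2137 to 11747 for the 1-year against the 0.5-year stem (8981), 112 to 1788 for the 2-year against the 1-year stem (443), 0 to 91 for the 3-year against the 2-year stem (2), 6690 to 16491 for the 3-year against the 0.5-year stem (13531), and 24 to 1828 for stem against branch (234). Stem against leaf gave 7949 to 12789 (10843) and stem against rhizome 3594 to 10691 (8762). The lowest of these for comparisons with the 0.5-year stem came from the summed libraries. With each library left out, in the same order, the counts were 13633 to 17227, 6178 to 10670, 15 to 1293, 0 to 3, 11226 to 14777, 2 to 802, 7999 to 13007 and 5464 to 10235. Under alternatives that left out no library 111 list counts moved by over 1.5 times and 693 did not, and with a library left out 104 moved and 1228 did not. Of the other named genes, PH02Gene36971 changed sign in the 0.5-year stem against the shoot, over -0.69 to 6.76 with each library left out, and was called without shoot library 3. Depth limits the low values: 3 counts correspond to 0.242 to 0.348 CPM in the growth stages and 0.333 to 0.479 in the plant parts.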
